A study of Mus musculus with 8 samples.

Results

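The genes described here are the 10 mouse genes of MHC class I presentation and its antigen processing machinery: *H2-K1*, *H2-D1*, *B2m*, *Tap1*, *Tap2*, *Tapbp*, *Psmb8*, *Psmb9*, *Psmb10* and *Nlrc5*. They were chosen by name for their known part in the pathway, and all 10 were found among the 21900 protein-coding genes of the RefSeq annotation of GRCm38. Each gene was described by the H3K27ac peaks in its gene body and the 5 kb on either side, and by the peak within 1 kb of its annotated start.

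The study deleted IkE120, an enhancer upstream of *Ikzf1*, from the mouse cell line P5424 and asked what the deletion did to *Ikzf1* and its chromatin. P5424 cells resemble T cell precursors. H3K27ac ChIP-seq, which marks active promoters and enhancers, was made in 1 library of wt P5424 cells and 1 library of P5424 cells with a homozygous CRISPR/Cas9 deletion of IkE120 (ΔIkE120), a clone obtained by limiting dilution. Both were grown in the same RPMI medium with serum, and whether the cells of the ChIP-seq had been stimulated with PMA and ionomycin was not stated.

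With 1 library per genotype there was no replicate, so no difference between wt and ΔIkE120 could be tested, and a difference between genotypes cannot be told apart from one between clones or between libraries. The wt list held 34553 peaks that covered 25189952 bp, and the ΔIkE120 list held 29902 peaks that covered 22143580 bp. The median peak was 603 bp long in wt and 628 bp in ΔIkE120. The deposited lists carry no read depth, and fold enrichments and −log10 q-values were therefore read within a list only. Around the deleted enhancer, the wt peak found 120 kb before the *Ikzf1* start ran over chr11:11563705-11565348 (1644 bp), and the nearest ΔIkE120 peak ran over chr11:11564652-11565363 (712 bp). The part of the wt peak farther from *Ikzf1*, which takes in IkE120 as the study places it, had no peak in the library labelled ΔIkE120.

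MHC class I molecules show peptides from inside the cell to CD8 T cells. The peptides are cut by the proteasome, carried into the endoplasmic reticulum by the TAP transporter and loaded onto a heavy chain paired with β2-microglobulin. Interferons raise the whole set of genes together, NLRC5 is a transcriptional activator of many of them, and immature thymocytes are known for low class I levels at their surface.

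A start peak was present at 9 of the 10 genes in wt and at the same 9 in ΔIkE120. Over the 21133 protein-coding genes with a known strand, 44.5% had a start peak in wt and 43.9% in ΔIkE120. None of the 10 had a start peak in a single list alone, a pattern that 1.11% of all genes showed for wt alone and 0.483% for ΔIkE120 alone. Every pair of start peaks overlapped in the 9 genes, as did 97.8% of pairs over all genes with a start peak in both lists.

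The merged windows of the 10 genes spanned 224116 bp, of which peaks covered 14093 bp in wt and 15235 bp in ΔIkE120, a ratio of 1.08. The median log2 ratio of covered bases, ΔIkE120 over wt, was 0.10 over the 9 genes with peaks, 6 above 0 and 3 below. Over the 12348 genes with covered bases in both lists the median was −0.07, with quartiles of −0.28 and 0.09. None of the 10 genes was covered at least 1.5-fold lower in ΔIkE120 and none at least 1.5-fold higher, against 13.2% lower and 3.89% higher over all 13086 genes with a covered base in either list. The latter shares move with the longer wt list: with the same number of best-scoring peaks in each they were 9.17% lower and 8.25% higher, and still 0 of the 10 genes was past 1.5-fold. The share past 1.5-fold depended on how much of a gene was covered. It was 30.9% lower and 12.5% higher among genes with up to 1000 covered bases in the fuller list, and 8.51% lower and 1.86% higher among those with 1000 to 3000, with 8.44% and 0.469% above 3000. Of the 9 genes with peaks, *Nlrc5* alone belonged to the sparsely covered class. These classes were chosen after the values had been seen.

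**Figure D1:**
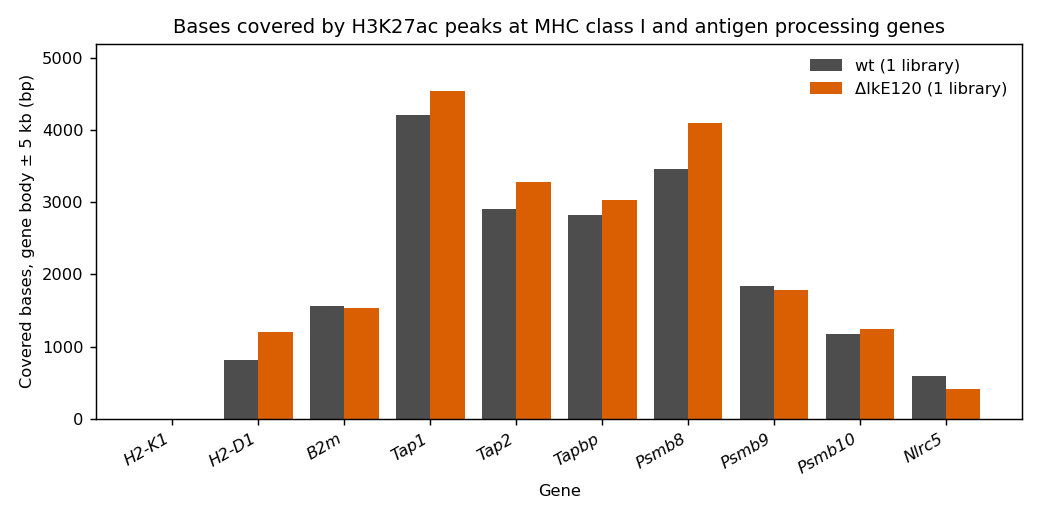
Bases covered by H3K27ac peaks (vertical axis, bp) in the gene body and 5 kb on either side of each of the 10 genes (horizontal axis), in the 1 wt library (grey) and the 1 ΔIkE120 library (orange). Bars range from 0 bp in both lists at *H2-K1* to 4210 bp in wt and 4543 bp in ΔIkE120 at *Tap1*, and differ most in ratio at *H2-D1* (817 and 1195 bp) and *Nlrc5* (590 and 405 bp).

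The class I heavy chains differed from each other in both lists. *H2-D1* (chr17:35263094-35267497) had a start peak of 603 bp in wt, with a fold enrichment of 3.88 and a −log10 q of 5.57. In ΔIkE120 the start peak was 1054 bp long, with a fold enrichment of 3.91 and a −log10 q of 5.64. The wt peak lay wholly within the ΔIkE120 peak, which reached farther upstream of the start, to 692 bp against 315 bp. A further peak, outside any protein-coding gene, stood near the upstream edge of the *H2-D1* window at chr17:35257810-35258307 in wt and chr17:35257781-35258234 in ΔIkE120. Counting its bases within the window, *H2-D1* was covered over 817 bp in wt and 1195 bp in ΔIkE120, a ratio of 1.46 that stood higher than that of nearly all genes, at percentile 96.8. Without the flanks the log2 ratio was 0.33 in place of 0.55.

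*H2-K1* (chr17:33996012-34000619), the other classical heavy chain gene, had no peak in its window in either list. The nearest peaks on its lower-coordinate side ended 14146 bp away in wt and 14042 bp away in ΔIkE120. On the other side they began 23749 bp away in wt and 23733 bp away in ΔIkE120. The wt and ΔIkE120 lists thus framed the same gap around *H2-K1*, while 39.9% of all genes had no covered base in either list.

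Class I genes are close copies of each other, and reads that fit several places are often dropped before peaks are called; how such reads were treated was not given in the sources used here. Of the stretches of 36 bases within 1 kb of the *H2-K1* start, 77.0% occurred once in the mm9 genome, against 89.3% at *H2-D1* and a median of 98.9% over 440 protein-coding genes. Of stretches of 75 bases, 97.8% occurred once at *H2-K1* and 99.9% at *H2-D1*. The class I-like gene *H2-T23*, with 43.3% of its stretches of 36 bases occurring once, did have a start peak in both lists, of 1249 bp in wt and 1186 bp in ΔIkE120. The part of sequence copies in the missing *H2-K1* peak was not tested, and the haplotype of P5424 was not given in the sources used here.

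The promoters of *H2-K1* and *H2-D1* are printed to show how alike they are, with a gap in the peak lists at the former and a peak at the latter. Over the 250 bases before the RefSeq promoter start, 190 bases could be aligned and 174 of them (91.6%) were identical. Capitals mark matches to motifs searched on both strands, the interferon-stimulated response element (GAAA, any 2 bases, GAAA), NF-κB (GGG, any 2 bases, TT, any base, CC), CCAAT (the Y box, bound by NF-Y), TGACG (the X2 box, the core of a CRE) and GGGCGG (GC box). The printed *H2-K1* stretch is chr17:34000348-34000597 on the minus strand and ends 272 bp inside the outer end of the annotated gene. That of *H2-D1* is chr17:35262844-35263093 on the plus strand. Both are GRCm38.p6 from RefSeq.
H2-K1: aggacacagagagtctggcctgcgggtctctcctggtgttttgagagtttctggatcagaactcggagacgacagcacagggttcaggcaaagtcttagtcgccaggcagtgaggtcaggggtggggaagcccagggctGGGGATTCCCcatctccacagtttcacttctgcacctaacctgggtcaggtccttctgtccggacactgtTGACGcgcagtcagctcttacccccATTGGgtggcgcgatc
H2-D1: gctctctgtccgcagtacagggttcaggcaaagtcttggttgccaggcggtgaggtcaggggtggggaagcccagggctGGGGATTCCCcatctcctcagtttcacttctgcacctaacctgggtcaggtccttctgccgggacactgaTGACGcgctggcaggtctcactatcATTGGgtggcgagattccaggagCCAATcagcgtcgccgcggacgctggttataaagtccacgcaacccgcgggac
Both stretches held GGGGATTCCC, a match to the NF-κB letters, at position 140 in *H2-K1* and 80 in *H2-D1*. TGACG followed at position 210 in *H2-K1* and 150 in *H2-D1*, and CCAAT on the opposite strand at 235 and 175. *H2-D1* held a further CCAAT at position 198, and the matching place of *H2-K1* lies past the end of its printed stretch. The NF-κB letters were found in 4.09% of the 17492 promoters of protein-coding genes, CCAAT in 36.3%, TGACG in 20.3% and the GC box in 42.7%. Peaks covered all 250 bases of the *H2-D1* stretch in both lists and 0 bases of the *H2-K1* stretch.

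*B2m*, which encodes β2-microglobulin, had nearly equal coverage, 1564 bp in wt and 1528 bp in ΔIkE120 (log2 ratio −0.03, or 0.25 without the flanks). Its peaks were cut differently. In wt a single peak (chr2:122147053-122148616) ran across the start at 122147687, with a fold enrichment of 3.37 and a −log10 q of 8.45. In ΔIkE120 peaks of 425 bp (chr2:122147109-122147533) and 1103 bp (chr2:122147704-122148806) stood on either side of a gap of 170 bp that held the start itself. The larger had a fold enrichment of 3.77 and a −log10 q of 10.6, the smaller 2.67 and 3.8. Of the 1564 wt bases, 1338 were also covered in ΔIkE120, and the base of the annotated start was inside a peak in wt only. With the stricter peaks, which leave out the smaller ΔIkE120 peak, the log2 ratio was −0.50. The span of *Patl2*, another gene, also takes in this region.

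The *B2m* promoter is shown because the gap between the ΔIkE120 peaks fell on it: peaks covered 250 of the printed bases in wt and 97 in ΔIkE120. It lies at chr2:122147437-122147686 on the plus strand (GRCm38.p6, RefSeq), with motif matches in capitals.
B2m: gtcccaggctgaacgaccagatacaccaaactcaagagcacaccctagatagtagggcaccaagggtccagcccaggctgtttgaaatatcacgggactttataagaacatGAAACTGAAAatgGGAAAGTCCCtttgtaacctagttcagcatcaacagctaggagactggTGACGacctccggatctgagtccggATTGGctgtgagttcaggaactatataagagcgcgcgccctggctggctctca
GAAACTGAAA, a match to the interferon-stimulated response element, began at position 112, and GGGACTTTCC, a match to the NF-κB letters, at position 125 on the opposite strand. TGACG began at position 173 and CCAAT on the opposite strand at 198. The exact letters of the interferon-stimulated response element were found in 3.02% of all promoters. Among the 8 genes of the pathway with a promoter in the table, *B2m* alone held these exact letters, and *H2-K1*, *H2-D1* and *B2m* held the NF-κB letters. Interferon response elements that differ from the searched letters were not looked for, so their absence at the other genes is not shown.

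*Tap1* and *Tap2*, which encode the partner chains of the peptide transporter, lie with *Psmb9* and *Psmb8* in 34292 bp of chromosome 17, within the MHC. The starts of *Psmb9* and *Tap1* are 226 bp apart and point away from each other. A single peak covered both starts in each list, chr17:34186685-34188524 (1840 bp) in wt and chr17:34186742-34188532 (1791 bp) in ΔIkE120. Its fold enrichment was 3.6 in wt and 3.56 in ΔIkE120, and its −log10 q was 14.09 and 12.18. The 2 versions shared 1783 bp, and the pair of genes is therefore 1 measurement and not 2. Its −log10 q stood at percentile 60.2 of all start peaks in wt and 47.6 in ΔIkE120, the highest of any of the 10 genes in either list. Its length stood at percentile 95.1 in wt and 94.4 in ΔIkE120.

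The stretch between the *Psmb9* and *Tap1* starts is printed because 1 peak covered it in full in both lists. It is chr17:34187331-34187555, plus strand, of GRCm38.p6 from RefSeq, reads towards *Tap1*, and has motif matches in capitals.
Psmb9-Tap1: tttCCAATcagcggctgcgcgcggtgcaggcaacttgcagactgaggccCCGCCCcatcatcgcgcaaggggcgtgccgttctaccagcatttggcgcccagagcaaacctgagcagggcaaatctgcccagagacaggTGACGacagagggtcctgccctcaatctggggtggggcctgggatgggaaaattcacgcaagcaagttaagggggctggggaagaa
It held CCAAT at position 4, the GC box on the opposite strand at 50 and TGACG at 140. These matches were counted for both genes. No match in the printed stretches shared a base with a match to another motif, and none of the searched letters was found in the 250 bases before the start of *Psmb8* or of *Psmb10*. RefSeq promoters for *Tap2* and *Nlrc5* were not in the table.

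*Tap1* was covered over 4210 bp in wt and 4543 bp in ΔIkE120 (log2 ratio 0.11, or −0.02 without the flanks), the most of the 10 genes in each list. The count takes in 3 peaks per list, of which the last lies at the start of *Psmb8*, 970 bp past the end of *Tap1*. A peak ran over the 3′ end of *Tap1*, at 34197225, in wt (chr17:34196160-34197690), and the matching ΔIkE120 peak (chr17:34196150-34197176) stopped short of that end.

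*Tap2* was covered over 2911 bp in wt and 3285 bp in ΔIkE120 (log2 ratio 0.17). Its start was followed, after 38 bp in wt, by peaks of 534 and 567 bp with a gap of 200 bp between them. In ΔIkE120 a single peak of 1345 bp, chr17:34204500-34205844, took in the place of both and of the gap. The start peak thus counted as 2.52 times as long in ΔIkE120. Its −log10 q stood at percentile 39.7 of the start peaks in wt and at 10.9 of those in ΔIkE120. Neither list had a peak within 1 kb upstream of the *Tap2* start. Further peaks inside *Tap2*, chr17:34211007-34212537 (1531 bp) in wt and chr17:34210948-34212468 (1521 bp) in ΔIkE120, each had a smaller peak just before them.

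**Figure D2:**
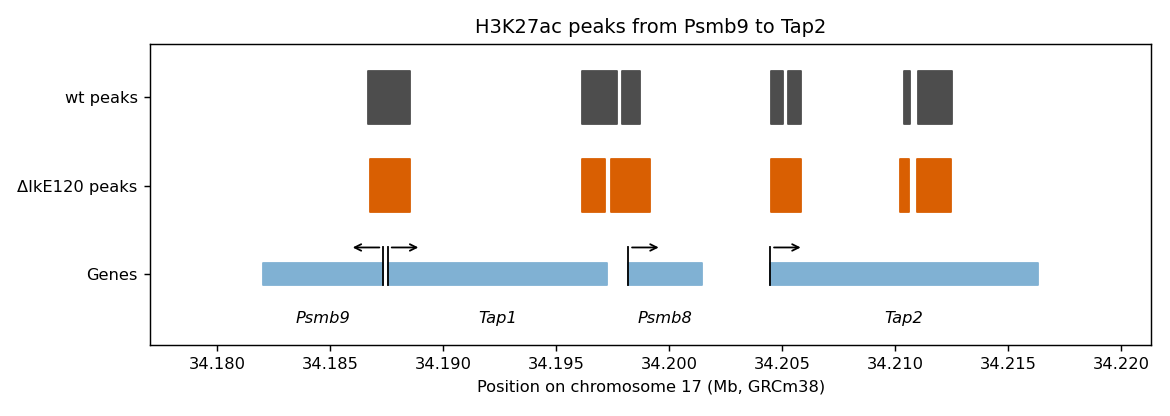
Map of chromosome 17 (horizontal axis, Mb, GRCm38) from *Psmb9* to *Tap2* with the H3K27ac peaks of wt (grey) and ΔIkE120 (orange) and the gene bodies (blue), arrows at the starts giving the direction of transcription. The same places carry peaks in both lists, and they are cut differently at *Psmb8* and at *Tap2*, where peaks of 534 and 567 bp in wt face a single one of 1345 bp in ΔIkE120.

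*Tapbp* encodes tapasin, which holds class I molecules at the transporter. Its start peak was 936 bp in wt and 817 bp in ΔIkE120, with fold enrichments of 3.15 and 2.89 and −log10 q of 5.13 and 3.47. The ΔIkE120 peak lay wholly inside the wt peak. Among the start peaks of all genes they stood low, at percentile 14.9 of fold enrichment in wt and 7.15 in ΔIkE120. The *Tapbp* window was covered over 2830 bp in wt and 3039 bp in ΔIkE120 (log2 ratio 0.10), and it takes in peaks at the starts of its neighbours *Zbtb22* and *Rgl2*. The strongest of these, at *Rgl2*, was chr17:33929477-33930720 in wt (−log10 q 23.73) and chr17:33929042-33930721 in ΔIkE120 (17.52). Without the flanks the *Tapbp* ratio was −0.02 on the log2 scale.

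The catalytic subunits of the immunoproteasome, which replace the standard ones and favour peptides that fit class I, all had start peaks in both lists. *Psmb8* had a start peak of 839 bp in wt and 1725 bp in ΔIkE120, 2.06 times as long. Its fold enrichment was 2.71 in wt and 2.46 in ΔIkE120, and its −log10 q was 10.09 and 5.98. The gap between this peak and the one near the end of *Tap1* lay at chr17:34197691-34197889 (199 bp) in wt and at chr17:34197177-34197408 (232 bp) in ΔIkE120. Bases given to the neighbouring peak in wt were thus part of the *Psmb8* peak in ΔIkE120. The *Psmb8* window was covered over 3471 bp in wt and 4097 bp in ΔIkE120 (log2 ratio 0.24). This window also holds the peaks at the end of *Tap1* and the start of *Tap2*. Over the gene body alone the log2 ratio was 0.81, past 1.5-fold, and *Psmb8* was the only one of the 10 genes past it in any window tried.

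*Psmb9* was covered over 1840 bp in wt and 1791 bp in ΔIkE120 (log2 ratio −0.04), all of it the peak shared with *Tap1*. *Psmb10* (chr8:105935728-105938392), the immunoproteasome subunit gene outside the MHC, had a single peak of 1171 bp in wt and 1240 bp in ΔIkE120 (log2 ratio 0.08). Fold enrichments were 3.99 and 3.86, and −log10 q were 10.97 and 8.82. The *Psmb10* peaks ended 26 bp inside the gene in wt and 5 bp inside it in ΔIkE120, and no base upstream of the start was covered in either list. Such one-sided peaks were found at 17.5% of all genes with a start peak in wt and 18.4% in ΔIkE120.

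*Nlrc5*, the transcriptional activator of class I genes, had the start peak with the lowest −log10 q of the 9. In wt it was chr8:94434140-94434729 (590 bp), with a fold enrichment of 3.18 and a −log10 q of 2.7. In ΔIkE120 it was chr8:94434387-94434791 (405 bp), with a fold enrichment of 2.79 and a −log10 q of 1.42. These −log10 q stood at percentile 3.49 of all start peaks in wt and 0.156 in ΔIkE120. The *Nlrc5* peak was the only one in a gene of 92938 bp, crossed the start in wt and began 52 bp after it in ΔIkE120. Coverage was 1.46-fold lower in ΔIkE120 (log2 ratio −0.54), and within the gene body alone the log2 ratio was 0.04.

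As a set, the start peaks of these genes had lower −log10 q and fold enrichment than the typical start peak in each list. With the peak of *Tap1* and *Psmb9* counted once, 8 start peaks were left in each list. The median of their −log10 q values came to 9.27 in wt, where that over all genes was 12.16, and 5.81 in ΔIkE120, where that over all genes was 12.61. Their median fold enrichment was 3.27 in wt, against 4.13 over all genes, and 3.23 in ΔIkE120, against 4.28. The 8 peaks had a median length of 887.5 bp in wt and 1171.5 bp in ΔIkE120, against 1079 and 1059 bp over genes with a start peak in both lists. With peaks up to 1 kb apart merged, the medians of the 8 were 1236 and 1292.5 bp. Without merging, the start peaks of *H2-D1*, *Tap2* and *Psmb8* were at least 1.5-fold longer in ΔIkE120 and none was 1.5-fold shorter, shares that were 5.62% and 6.83% over all genes. At *Tap2* and *Psmb8* the longer peak went with a shifted or closed gap between peaks. The *Psmb8* peak also ended farther downstream, at 34199133 in ΔIkE120 and 34198728 in wt. More bases were covered downstream than upstream of the start at 6 of the 9 genes in wt and 7 in ΔIkE120, as at 75.9% and 77.4% of all genes with a start peak.

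**Figure D3:**
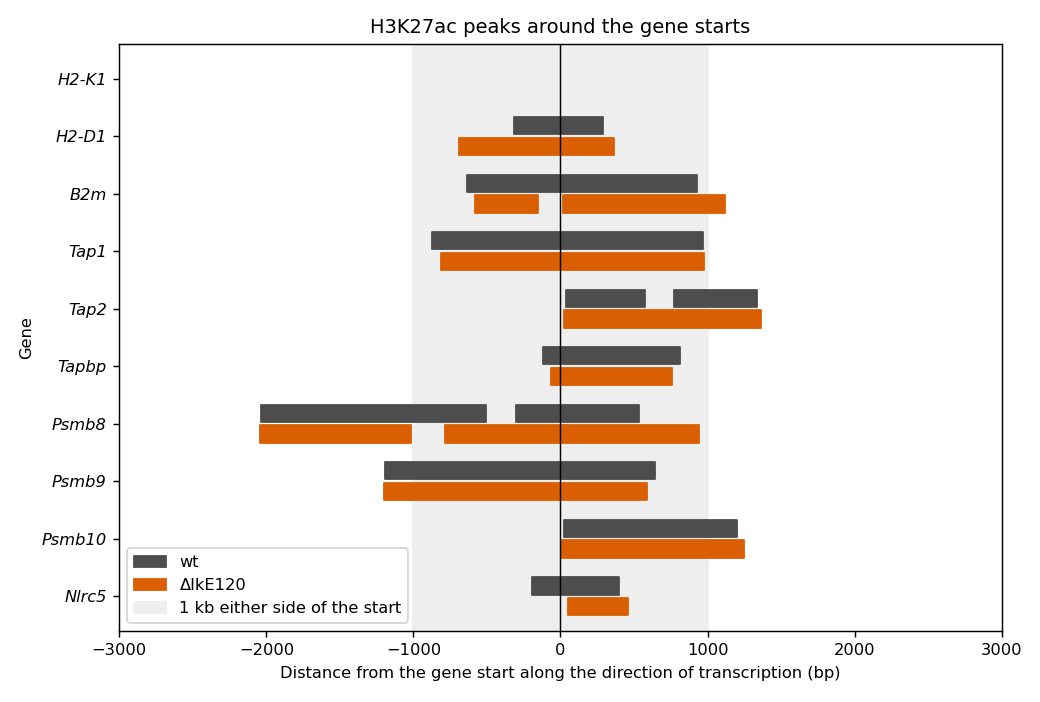
H3K27ac peaks within 3 kb of the start of each of the 10 genes (horizontal axis, bp along the direction of transcription; vertical axis, genes) in wt (grey) and ΔIkE120 (orange), with 1 kb either side of the start shaded. *H2-K1* has no peak, the peak of *B2m* is split by a gap of 170 bp at the start in ΔIkE120, and *Psmb10* and *Tap2* have no covered base upstream.

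The partners of these genes in peptide loading and trimming, such as calreticulin and the trimming peptidases, had start peaks at 8 of 8 genes in both lists. None of the 8 was past 1.5-fold in covered bases, beside 13.2% lower and 3.89% higher over all genes. With so few genes a count of 0 says little. Their median log2 ratio was −0.03. *Sppl3*, an intramembrane protease, was covered over 6005 bp in wt and 5206 bp in ΔIkE120. *Tapbpl*, which encodes the tapasin relative TAPBPR, was covered over 3388 and 2860 bp.

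The standard catalytic subunits of the proteasome and the PA28 activator had start peaks at 6 of 6 genes in both lists, with a median log2 ratio of 0.08. Of these 6 genes 0 were past 1.5-fold, beside 13.2% lower and 3.89% higher over all genes. *Psme2* was covered over 1782 bp in wt and 1676 bp in ΔIkE120, and *Psme3* over 1444 and 1349 bp. Of the 11 other subunits of the core particle, 10 had a start peak in both lists. *Psma6* had one in ΔIkE120 alone, of 308 bp, though its window was covered over 5515 bp in wt and 4799 bp in ΔIkE120. *Psmb3* was covered 1.54-fold lower in ΔIkE120, over 2614 bp in wt and 1702 bp in ΔIkE120. *Psma3* was covered over 3646 and 3222 bp, and the median log2 ratio over the 11 genes was −0.18. *Psma6* was thus the only one of these proteasome genes without a start peak in both lists.

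Among 17 nonclassical and class I-like genes, 16 had a known strand and 9 of these had a start peak, the same number in both lists and with none in a single list alone. No base was covered in either list at 6 genes, *H2-M3*, *H2-M2*, *H2-Q1*, *H2-Q6*, *H2-Q7* and *H2-Q10*, which were named for this after their values had been seen. Of their stretches of 36 bases, 93.5% occurred once in mm9 at *H2-M3*, 95.6% at *H2-Q10* and 32.6% at *H2-Q6*. The part of sequence copies in the missing peaks of these 6 genes was not tested. *H2-T10* was covered over 3920 bp in wt and 4070 bp in ΔIkE120, and *H2-T3* over 3211 and 3303 bp. *Hfe*, an iron regulator of class I fold, was covered 1.68-fold higher in ΔIkE120 (1337 bp in wt, 2248 bp in ΔIkE120), and *H2-Q2* 1.53-fold higher (876 and 1342 bp). These were 2 of the 11 covered genes, beside 3.89% higher over all genes, and 0 were lower, beside 13.2%. The *Hfe* window held 2 peaks in wt and 4 in ΔIkE120, while its start peak was 902 and 920 bp long. The *H2-Q2* start peak was 594 bp in wt and 243 bp in ΔIkE120, with −log10 q of 3.65 and 2.03. The median log2 ratio of the list was 0.04.

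Among 16 genes of transcription factors that act on class I promoters, 13 had a start peak in both lists and *Nfyc* had one in ΔIkE120 alone, of 266 bp. *Irf9*, an interferon regulatory factor, was covered 2.08-fold lower in ΔIkE120, over 1129 bp in wt and 544 bp in ΔIkE120. Coverage at least 1.5-fold lower was found at 13.2% of all genes with a covered base, so a gene of this kind is common. None of the 16 was 1.5-fold higher, beside 3.89% over all genes. *Nfkb1*, which had the most covered bases, had 4988 bp in wt and 4585 bp in ΔIkE120, and *Nfyc* had 2087 and 2447 bp. The median log2 ratio over the list was −0.12, beside −0.07 over all genes.

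The markers of the cell line were those of T cell precursors. All 12 T lineage genes had a start peak in both lists, with 57983 bp covered in wt and 54954 bp in ΔIkE120. The median log2 ratio of the 12 was 0.01, with 7 genes above 0 and 5 below. *Cd247* was covered over 9157 and 8266 bp and *Bcl11b* over 8413 and 7139 bp. *Cd8a* was covered 2.05-fold lower in ΔIkE120, over 2419 bp in wt and 1178 bp in ΔIkE120, with a start peak in both. Of 6 B cell genes, *Ebf1* alone had a start peak in both lists, and the list summed to 4955 bp in wt and 3523 bp in ΔIkE120, most of it at *Cd79b* (1554 and 1335 bp) and *Cd79a* (1371 and 1114 bp). *Ebf1* had 988 bp in wt and 602 bp in ΔIkE120, *Pax5* 389 and 0 bp, and *Ms4a1* 0 bp in both. Of 5 myeloid genes with a known strand, *Cd14* alone had a start peak, and the 6 genes of the list summed to 6427 bp in wt and 4597 bp in ΔIkE120. *Itgam* had 3157 and 2560 bp, *Spi1* 1764 and 1204 bp and *Itgax* 1119 and 531 bp, while *Csf1r* and *Lyz2* had 0 bp in both. Of 6 fibroblast and epithelial genes 0 had a start peak, with 1264 bp in wt and 280 bp in ΔIkE120 in all, from *Pdgfra* (779 and 0 bp) and *Cdh1* (485 and 280 bp). The part of other cells in the peaks of the class I genes was not tested.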

How the data were processed

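H3K27ac ChIP-seq peak lists of 1 wt and 1 ΔIkE120 library of P5424 cells were used; the 4C-seq files of the series were not used here. Per the labels the build was GRCm38, and the submitters' processing notes name Bowtie2 2.3.4.3, Bowtie 1.0.0, deepTools 3.2.1 and MACS2 2.1.1, with no roles given. The authors deposited broad peaks with 9 columns, among them a score (10 times the −log10 q-value, cut to a whole number), a ratio given as fold enrichment, and both p-values and q-values as −log10. Read depth is unknown.

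Peaks were placed against RefSeq genes (GRCm38.p6). Strand came from RefSeq promoters for 17492 genes and from GENCODE M1, by symbol, for 3641. The start peak was the one with the most bases within 1 kb of the outer end of the gene; covered bases were counted over the gene body and 5 kb on either side, and 1.5-fold was used as the limit for naming a difference. Overlaps were computed with Python 3.11.15, numpy 2.4.6 and pandas 2.3.3 and tested on simulated lists. Motifs were searched as exact letters in the first RefSeq promoter of each gene. Unique stretches were counted on both strands of mm9, around GENCODE M1 starts, since no GRCm38 genome was used here; coordinates were not converted. Every 50th protein-coding gene by symbol gave the comparison. The count of unique stretches and the look at the peak 120 kb before *Ikzf1* were added after the data were seen.

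Other genes named were, in each list, those with a start peak in a single list alone or past 1.5-fold (at most 4, most covered bases first) and the 2 with the most covered bases in wt; 1 gene of the transcription factor list is not reported here. Alternatives were stricter peaks, other start windows, other flanks, merged peaks and other overlaps. The 10 genes and the lists were chosen with earlier results of these data known.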

Additional observations from a re-analysis of the deposited data

How the results depend on the processing

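Of 71 values recomputed under other settings, 67 stayed within 1.5-fold of the reported one. When each list was limited to the stronger peaks by its own median −log10 q, or to its 14951 best-scoring peaks, the count of genes with a start peak in a single list alone went from 0 to 1 in both settings: *Tapbp* lost its ΔIkE120 peak and *Nlrc5* its peak in both lists, which left 8 genes with a start peak in wt and 7 in ΔIkE120. With no flank the count of genes covered at least 1.5-fold higher in ΔIkE120 went from 0 to 1 (*Psmb8*), and none was 1.5-fold lower in any setting. With the 14951 best-scoring peaks of each list, a setting chosen for the MHC class II genes after seeing the data, the count of class II genes covered at least 1.5-fold lower went from 5 to 1. The median length of the start peak, by gene, was 936 bp in wt and 1240 bp in ΔIkE120. It was 1301 and 1345 bp with near peaks merged, and 1171 and 1240 bp with a start window of 2 kb. With the stronger peaks by each list's own median −log10 q it was 1053.5 and 1345 bp. The median log2 ratio over the genes lay between 0.08 and 0.10, and that over their merged windows between 0 and 0.14. The medians over all genes lay between −0.08 and −0.02. Of 34 ratios of single genes, 0 moved by 1.5-fold or more and 5 changed sign, at *B2m*, *Tap1*, *Tapbp* and *Nlrc5*. *Nlrc5* gave no ratio with the stricter peaks. No paired analysis was possible because each genotype had 1 library. Peak edges depend on depth, which the lists do not give. The height of the signal was read only as the fold enrichment of peaks within a list, and not from reads.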

Other observations

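The MHC class II genes, whose products present peptides to CD4 T cells and most of which lie around *Tap1* and *Psmb9* on chromosome 17, were sparsely covered. Of 11 class II genes including the activator *Ciita* and the invariant chain gene *Cd74*, 3 had a start peak in wt and 2 in ΔIkE120, and 4 had no covered base in either list. The window of *H2-DMa*, a peptide exchange factor, had the most, with 5473 bp in wt and 4899 bp in ΔIkE120. Whether the peaks of that window, its start peak among them, belong to *H2-DMa* or to a neighbouring gene was not tested. At least 1.5-fold lower coverage in ΔIkE120 was found at 5 of the 7 covered genes, beside 13.2% over all genes. They were 4 of the 4 class II genes with up to 1000 covered bases, beside 30.9% of all such genes, and 1 of the 3 with more, where the shares over all genes were 8.51% up to 3000 bases and 8.44% above. With the same number of best-scoring peaks in each list, 3 class II genes were covered and 1 of them, *H2-Ob*, was lower, beside 9.17% over all genes. *Ciita* had 1881 bp in wt and 694 bp in ΔIkE120, *H2-Eb2* 855 and 451 bp and *H2-Ob* 758 and 448 bp. *H2-Eb1* had 567 bp in wt and is listed at 0 in ΔIkE120. *H2-Ab1*, named after its values had been seen, had 276 bp at its start in wt, with a −log10 q of 1.49, and is listed at 0 in ΔIkE120. None was 1.5-fold higher. Summed coverage of the marker lists of other cell types was also lower in ΔIkE120. It came to 3523 against 4955 bp in wt for B cell genes and 4597 against 6427 bp for myeloid genes. Fibroblast and epithelial genes summed to 280 against 1264 bp. The T cell precursor markers summed lower as well, to 54954 against 57983 bp, and all peaks of the list to 22143580 against 25189952 bp. The part of other cells in the class II values was not tested.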
